A study of Solenopsis invicta with 64 samples.

Results

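Brain-restricted genes were followed here across social form and supergene genotype in the fire ant Solenopsis invicta. They were chosen on monogyne animals alone: a gene with a LOC symbol had to average 50 CPM (counts scaled to a fixed library total, per 1e6) or more in monogyne brains, and its brain mean plus 0.5 CPM had to be at least 64 times its ovary mean plus 0.5 CPM in the same animals. Of 15512 LOC genes, 3701 met the brain level, 177 met the ratio and 166 met both. Since monogyne brains and ovaries chose the members, their monogyne values are a description and are not tested, and the tests below use polygyne animals only.

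The libraries came from the brains and ovaries of winged, unmated future queens (alate gynes) caught on mounds in Georgia, USA, when they set out on mating flights in April 2015, and each library holds the organ of 1 gyne. With 8 brains and 8 ovaries each, the groups were Sb/Sb gynes, SB/Sb gynes and SB/SB gynes of the polygyne form, and SB/SB gynes of the monogyne form. In the monogyne form a colony has a single queen and in the polygyne form it has several, and the forms differ by a supergene on chromosome 16 whose variants are SB and Sb. All were labelled reproductively mature and were caught in the wild, so colony and exact age were not set by the design.

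As background, a brain samples neurons, glia and the sensory and secretory tissue dissected with it, and genes that are read only in nerve or gland cells commonly have few transcripts in an ovary, which is made of germ cells, nurse cells and follicle cells. Recombination between SB and Sb is suppressed in heterozygotes, so the many genes inside the supergene are inherited together. The files name genes by LOC number only. The reference table gave a name to 1 member, LOC105203994, listed as an odorant-binding protein, a family of small secreted carrier proteins that bind odorants and other ligands, so roles are given for no other member.

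Brain libraries held 9.46 M to 26.95 M counts (M, 1e6; median 19.6 M) and ovary libraries 10.1 M to 22.6 M (median 17.5 M). The ovary of polygyne SB/SB gyne 104D held 73573 counts in all and was left out, which leaves 7 polygyne SB/SB ovaries. The only other named tissue marker, the vitellogenin receptor LOC105200757, by which oocytes take up yolk protein, lay between 0 and 15.0 CPM in the brains and between 11.5 and 703 CPM in the ovaries, so the ovary with the lowest value, 19G of the Sb/Sb group, was below the highest brain. Its highest ovary values were in 104G (703 CPM, Sb/Sb), 16C (590 CPM, SB/Sb), 1E (663 CPM, polygyne SB/SB) and 16D (556 CPM, polygyne SB/SB), and the other 27 ovaries lay at or under 293 CPM. Brains 1E, 16C, 16D and 30A stood apart from the other brains, as described below. Results of the main tests, by edgeR, that rest on these animals are given with and without them, but DESeq2 was run only with them. In bulk tissue, fewer cells of a type and less RNA per cell cannot be told apart.

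Polygyne animals, which the choice had not used, gave the same direction. In 47 polygyne libraries, with the animal as a block, 164 of 166 members were higher in brain than in ovary (edgeR quasi-likelihood test, adjusted p under 0.05), against 34.5% of all 11640 genes tested. The exceptions were LOC105196618 (log2 brain over ovary 1.48, SE 1.86, adjusted p = 0.474) and LOC105197827 (1.47, SE 0.73, adjusted p = 0.0670), both of which swung widely between brains. The median member was 9.08 log2 units higher in brain, against -0.19 for all genes. Both conditions of the choice were met again by 110 members on the polygyne Sb/Sb means, 131 on the SB/Sb means and 140 on the polygyne SB/SB means. The ratio alone was met by 116, 135 and 146 members in the same order of groups, and the brain level by 149, 154 and 150.

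Near the level threshold, LOC105208175 (50.3 CPM in monogyne brains), LOC105194687 (50.5 CPM) and LOC105199052 (52.0 CPM) lay just inside, and LOC105204615 (44.3 CPM), LOC105206812 (42.4 CPM) and LOC105197622 (41.5 CPM) just outside. Near the ratio threshold, LOC105204147 (65.4 times), LOC105200547 (66.0 times) and LOC105205428 (67.1 times) lay just inside, and LOC105201171 (60.8 times), LOC105199549 (59.9 times) and LOC105205903 (59.1 times) just outside.

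The members were spread over the genome. Of 166, 155 were in the RefSeq gene table of assembly UNIL_Sinv_3.0, all of them protein coding, and 154 were placed on a chromosome. All 16 chromosomes carried members, between 3 and 17 each. Chromosome 16 held 13 members, 8.44% of those placed, against 8.22% of all placed LOC genes. A single transcript was listed for 48.4% of the 155, against 51.8% of the 3520 protein-coding LOC genes that met the brain level. In 9 places members were direct neighbours in the table, 22 members in all. The neighbours LOC105201027 and LOC105201028 on chromosome 3 moved together over the 32 brains (r = 0.94 of deviations from group means), and so did LOC105205428, LOC105204684 and LOC105204669 on the same chromosome (r from 0.81 to 0.88). The neighbours LOC105200113 and LOC105200114 on chromosome 11 did not (r = -0.09). These correlations describe 32 libraries that share their preparation and carry no test.

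The member with the most counts was LOC105197799 on chromosome 10. It averaged 19272 ± 8725 CPM in polygyne Sb/Sb brains, 17056 ± 8406 in polygyne SB/Sb brains, 14231 ± 8810 in polygyne SB/SB brains and 20484 ± 7301 in monogyne brains (SD, n = 8 each). Its lowest brains were SB/Sb brain 16C with 329 CPM and polygyne SB/SB brain 1E with 757 CPM, against 5354 CPM or more in Sb/Sb brains and 10949 CPM or more in monogyne brains. LOC105206506, on the supergene chromosome, came next with 7757 ± 1700 CPM in Sb/Sb, 7327 ± 3250 in SB/Sb, 8583 ± 2101 in polygyne SB/SB and 8632 ± 2274 in monogyne brains. The groups overlapped for both genes. CPM is not corrected for transcript length, so this order is one of counts and not of molecules.

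LOC105195084 averaged 5600 ± 624 CPM in Sb/Sb, 4029 ± 2417 in SB/Sb, 3514 ± 1986 in polygyne SB/SB and 6054 ± 907 in monogyne brains (SD, n = 8 each), with its lowest values of 835 and 810 CPM in SB/Sb and polygyne SB/SB brains. LOC105201027 had the same shape, with 2825 ± 535, 2049 ± 1259, 1990 ± 1344 and 3233 ± 652 CPM in Sb/Sb, SB/Sb, polygyne SB/SB and monogyne brains. LOC105197556 ranged from 1863 to 7468 CPM over all 32 brains and LOC105197517 from 2210 to 8496 CPM. LOC105201582 lay at 1392 to 3216 CPM and LOC105193621 at 653 to 2864 CPM. LOC105202669 reached 9936 CPM in 1 polygyne SB/SB brain and 29.5 CPM in 1 monogyne brain. LOC105199190 had medians of 665, 782, 773 and 711 CPM in Sb/Sb, SB/Sb, polygyne SB/SB and monogyne brains, yet 10593, 14867, 24087 and 7803 CPM in the highest brain of each.

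Members varied more between brains than other genes of that level. Their median coefficient of variation over 32 brains was 42.7%, against 29.7% for the 3701 LOC genes that met the brain level, and it was 100% or more for 13.9% of members against 3.32% of those genes. The most even were LOC105196463 (20.3%), LOC105199198 (21.0%), LOC105196012 (21.3%), LOC105194659 (21.5%) and LOC105197458 (21.6%). LOC105196463 averaged 200 ± 50.5 CPM in Sb/Sb, 200 ± 39.8 in SB/Sb, 219 ± 33.5 in polygyne SB/SB and 208 ± 48.1 in monogyne brains. The least even were LOC105202373 (493%), LOC105199979 (474%), LOC105196618 (445%), LOC105193375 (437%) and LOC105192793 (335%), in which a few brains held nearly all the counts. Those of them in block H, described below, met the brain level only through monogyne brain 233A. The monogyne brains that chose the members are among the 32, so the variation is not independent of the choice.

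Few members differed between genotypes in the brain. Between polygyne Sb/Sb and SB/SB brains, 2 of 166 members were higher and 0 lower, against 0.607% of all 10704 genes tested higher, 0.355% lower and 0.962% either way, so the share of members called was near the background. LOC105203538, on chromosome 16, had 50.6, 116 and 201 CPM as its lowest, median and highest Sb/Sb brain, 12.6, 74.4 and 134 CPM in SB/Sb brains, 25.1, 33.7 and 68.3 CPM in polygyne SB/SB brains and 27.1, 58.7 and 85.5 CPM in monogyne brains. The Sb/Sb brains lay above the polygyne SB/SB brains but for the lowest, and the fitted difference was 1.72 log2 units (SE 0.34, adjusted p = 0.00394, edgeR). LOC105203537, which has the adjacent LOC number and is not in the gene table, had 70.0, 182 and 362 CPM in Sb/Sb brains, then 23.3, 155 and 240 CPM in SB/Sb brains, 45.4, 85.0 and 106 CPM in polygyne SB/SB brains and 45.8, 93.9 and 134 CPM in monogyne brains. Its Sb/Sb brains again overlapped the polygyne SB/SB brains only at the bottom, and the difference was 1.41 log2 units (SE 0.32, adjusted p = 0.0173), which no longer passed without Sb/Sb brain 15G (adjusted p = 0.0663). How the counting split reads between similar genes is not given, so these calls may not be independent.

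**Figure D1:**
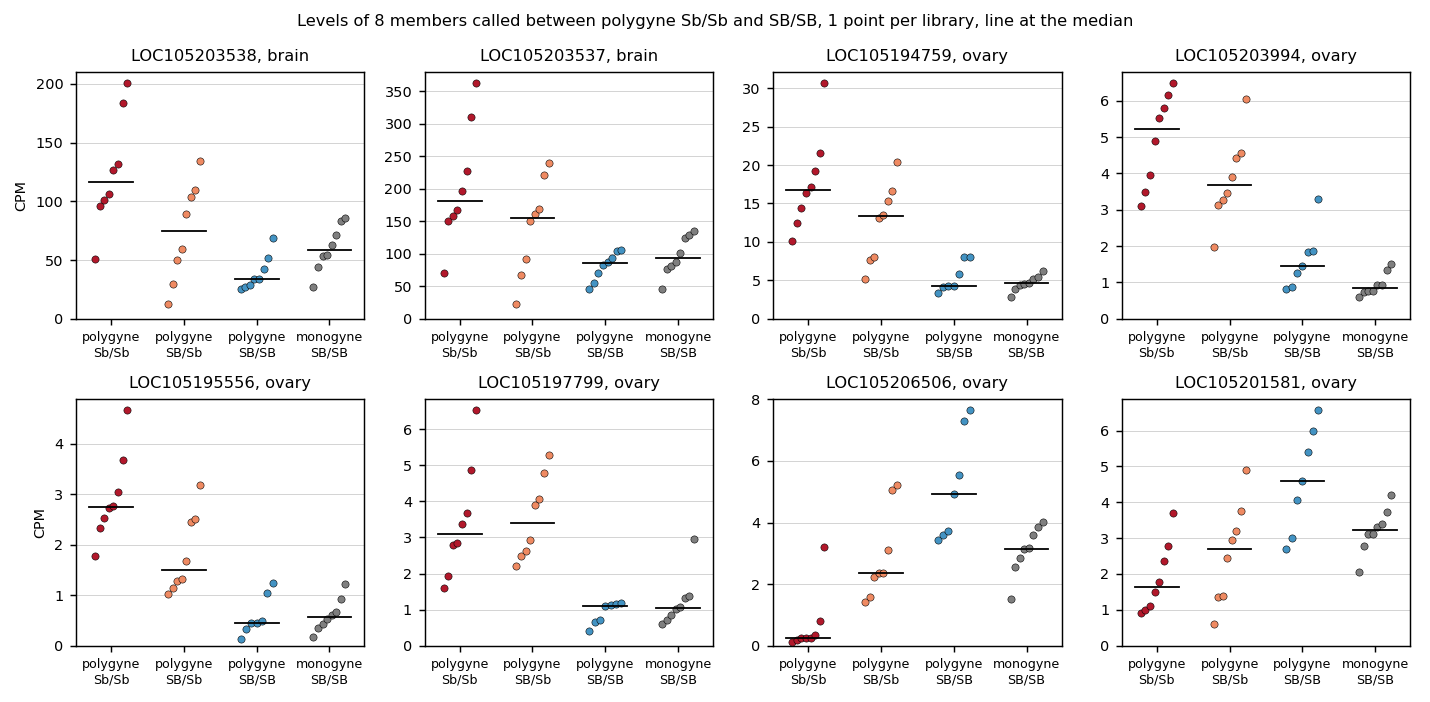
CPM (linear axes) of 8 members called between polygyne Sb/Sb and polygyne SB/SB, in brain (the first 2 panels) or ovary, with 1 point per library and a line at the group median. LOC105203538 and LOC105203537 were higher in Sb/Sb brains, the next 4 members were higher in Sb/Sb ovaries, and LOC105206506 and LOC105201581 were lower in Sb/Sb ovaries.

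Between SB/Sb and polygyne SB/SB brains 0 members were called by edgeR and 0 by DESeq2, against 0.252% and 0.336% of all genes called, and 8 members and 422 of all 10704 genes had an unadjusted p under 0.05 in edgeR. Between Sb/Sb and SB/Sb brains it was again 0 by both tools, against 0.159% and 0.243% of all genes called, and 23 members and 1070 of all 10704 genes had an unadjusted p under 0.05 in edgeR. Between Sb/Sb and polygyne SB/SB brains DESeq2 called 14 members, 2 higher and 12 lower, against 1.14% and 4.2% of all genes and 5.34% either way. Of its 12 lower members 11 belonged to block A described below, and the other was LOC105199531 on chromosome 16. DESeq2 was not run without brains 1E, 16C, 16D and 30A. In edgeR, 24 of the 31 members of block A had an unadjusted p under 0.05 with all brains, and 4 without those brains. The count over all genes fell too, from 1763 of 10704 to 741 of 10864. LOC105199531 averaged 5.25 CPM in Sb/Sb brains, 30.3 in SB/Sb, 83.4 in polygyne SB/SB and 213 in monogyne brains, with a single brain at 1063 CPM in the last group. Without brains 1E, 16C, 16D and 30A edgeR called LOC105199531 too (-4.27 log2 units, SE 1.03, adjusted p = 0.0320), beside the same pair of higher genes.

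Apart from LOC105203538, edgeR called no member placed on the supergene chromosome in brain with all libraries, while DESeq2 also called LOC105199531 and, of block A, LOC105203804 and LOC105203059 lower in Sb/Sb than in polygyne SB/SB brains. LOC105199893 had 78.2 ± 48.3 CPM in Sb/Sb, 104 ± 50.6 in SB/Sb, 197 ± 115 in polygyne SB/SB and 222 ± 109 in monogyne brains (SD, n = 8 each), and LOC105193138, which neighbours LOC105206506 in the gene table, had 118 ± 26.6, 127 ± 43.8, 171 ± 46.2 and 196 ± 57.2 CPM in the same order of groups. In both, the mean was lowest in Sb/Sb and highest in monogyne brains, and the ranges of all groups overlapped. LOC105202817, LOC105193814, LOC105202586 and LOC105202427 kept group means within 115 to 138, 193 to 265, 98.9 to 140 and 344 to 443 CPM. LOC105201535, LOC105203804 and LOC105203059 belonged to block A, and LOC105199319 to block E.

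The SB/SB gynes of the 2 social forms were set side by side as a description. The polygyne mean was above the monogyne mean in 73 of 166 members, with a median ratio of 0.938, against 0.910 over the 3701 LOC genes that met the brain level. It was more than 2 times the monogyne mean in 12 members and under 1/2 of it in 9, which is 7.23% and 5.42% of members against 3.24% and 1.03% of those genes. In none of the 166 did every polygyne SB/SB brain lie on 1 side of every monogyne brain, against 0.0374% of 10704 genes on each side. Nor was any member separated in this way between Sb/Sb and polygyne SB/SB brains (0.579% of genes above, 0.14% below), between SB/Sb and polygyne SB/SB brains (0.187% above) or between Sb/Sb and SB/Sb brains (0.0467% on each side). The odorant-binding protein LOC105203994 had 1620 ± 463 CPM in Sb/Sb, 1346 ± 497 in SB/Sb, 1432 ± 297 in polygyne SB/SB and 1129 ± 184 in monogyne brains (SD, n = 8 each), with overlapping ranges.

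Many members were high or low in the same brains, in blocks. When members were grouped by the correlation of their log2(CPM + 0.5) deviations from the group means (average linkage at 1 - r = 0.4), 130 of 166 fell into 12 blocks of 3 or more, and 36 into none. The median r over all pairs of members was 0.05. Within the blocks it lay between 0.65 and 0.93.

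**Figure D2:**
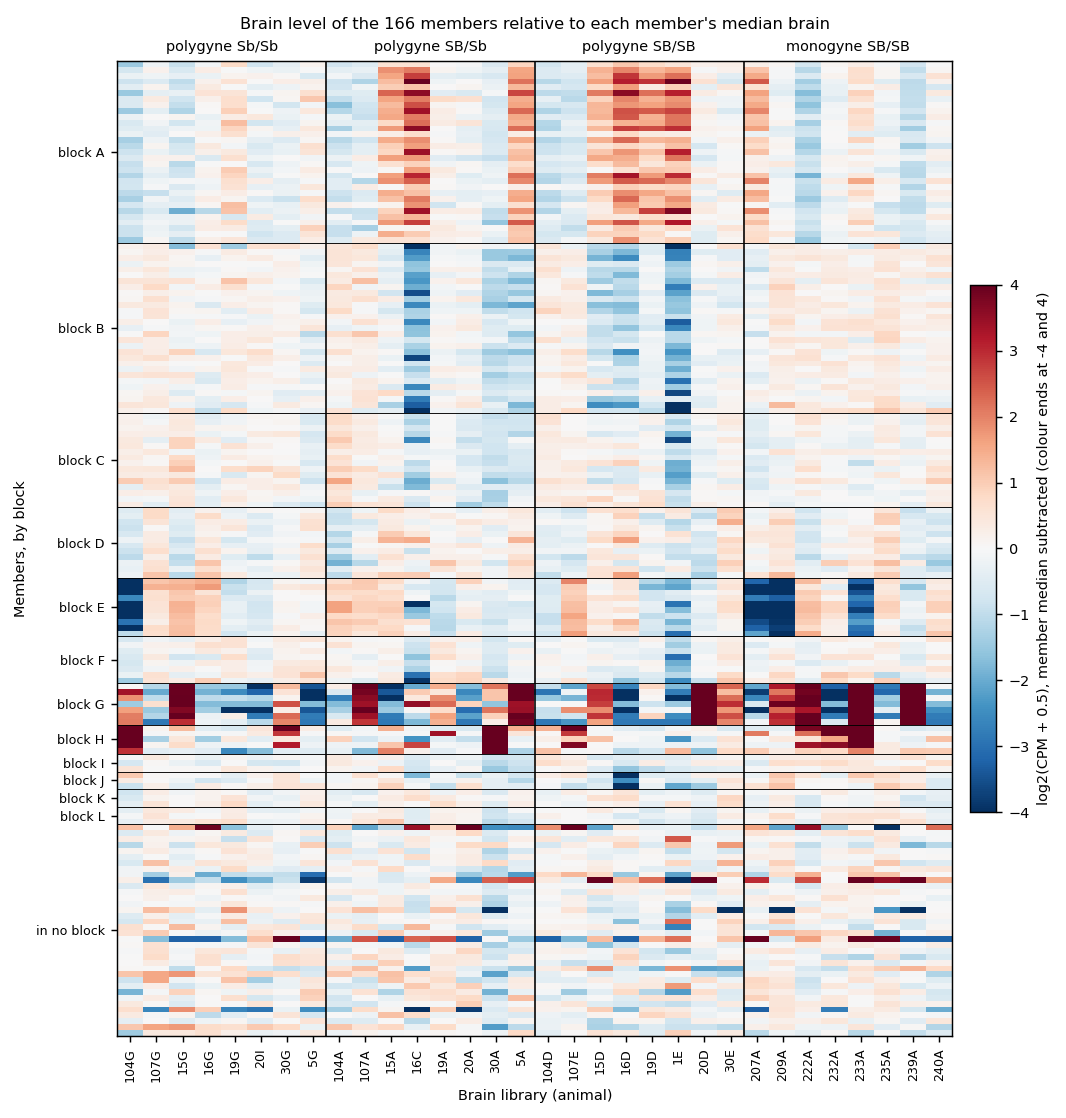
Brain level of the 166 members (rows, ordered by block) in 32 brains (columns, by group), as log2(CPM + 0.5) minus the member's median over brains; red is above and blue below it. Block A was high in brains 16C, 16D and 1E, block B low in 16C and 1E, block E far below its median in 104G and 209A, and block H high in 30A, 104G and 233A.

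Blocks A and B ran in opposite directions. Block A (31 members, median r 0.82) summed to 2293 to 5820 CPM in Sb/Sb brains, 2659 to 21040 in SB/Sb, 2492 to 16942 in polygyne SB/SB and 1988 to 8628 in monogyne brains. Its highest brains were 16C (21040 CPM), 16D (16942 CPM) and 1E (16737 CPM), none of them Sb/Sb. Block B (29 members, median r 0.74, led by LOC105197799 and LOC105195084) summed to 26175 to 48247 CPM in Sb/Sb brains, 5168 to 54767 in SB/Sb, 5808 to 48952 in polygyne SB/SB and 32376 to 60938 in monogyne brains, and its lowest brains were 16C and 1E. The fitted Sb/Sb against polygyne SB/SB change in brain was below 0 in all 31 members of block A, with a median of -0.95 log2 units, and above 0 in all 29 of block B, with a median of 0.38. Members of a block vary together, so such counts are not independent, and edgeR called none of the 60. Without brains 1E, 16C, 16D and 30A the medians were -0.43 and 0.13. The ovaries of 16C, 16D and 1E were also among the 4 with the highest vitellogenin receptor level, whereas the brain of 104G, whose ovary had the highest, summed to 2293 CPM over block A; whether ovary state and the blocks are linked was not tested.

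Block E was present in most brains and near absent in a few. Its 10 members (median r 0.93) include LOC105202669, LOC105199319 and LOC105201581 and sit on several chromosomes. They summed to 274 to 15286 CPM in Sb/Sb brains, 3734 to 12219 in SB/Sb, 2311 to 17732 in polygyne SB/SB and 93.3 to 12925 in monogyne brains. The low brains were 104G (274 CPM) of the Sb/Sb group and 209A (93.3 CPM), 207A (448 CPM) and 233A (614 CPM) of the monogyne group. LOC105199319 was at 8.57 CPM in 104G and 4.34 CPM in 209A, against medians of 1967, 1616, 1097 and 761 CPM in Sb/Sb, SB/Sb, polygyne SB/SB and monogyne brains. LOC105203147 was at 2.46 CPM in 104G and 0.518 CPM in 209A, against medians of 181, 172, 188 and 240 CPM.

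Blocks G and H behaved the other way round, with high levels in a few brains. Block G (7 members, median r 0.89) summed to 12499 CPM in polygyne SB/SB brain 20D and 10157 CPM in monogyne brain 239A, against medians of 28.7, 154, 90.5 and 296 CPM in Sb/Sb, SB/Sb, polygyne SB/SB and monogyne brains. Its leading gene, LOC105197827, reached 4750 CPM in 20D and 4202 CPM in 239A, against medians of 7.42, 37.7, 22.0 and 100 CPM in Sb/Sb, SB/Sb, polygyne SB/SB and monogyne brains. Block H (5 members, median r 0.93) summed to 249535 CPM in SB/Sb brain 30A, 54964 CPM in Sb/Sb brain 104G and 8122 CPM in monogyne brain 233A, and to 251 CPM or less in each of the other 29 brains. LOC105193375 alone made up 102951 CPM in 30A, 30823 CPM in 104G and 4037 CPM in 233A, and its medians were 0.492, 0.191, 0.219 and 0.184 CPM in Sb/Sb, SB/Sb, polygyne SB/SB and monogyne brains. LOC105202373 followed with 78224, 10477 and 1245 CPM in those 3 brains, then LOC105199979 with 38511, 6858 and 1015 CPM and LOC105196618 with 26816, 6351 and 1594 CPM. These 4 genes averaged 50 CPM or more in monogyne brains only through 233A, and without that animal 159 genes met the conditions of the choice, 158 of them members. In 30A the members as a whole took 31.3% of all counts, against 5.93% to 14.3% in the other brains, so CPM of every other gene is lowered in that library.

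**Figure D3:**
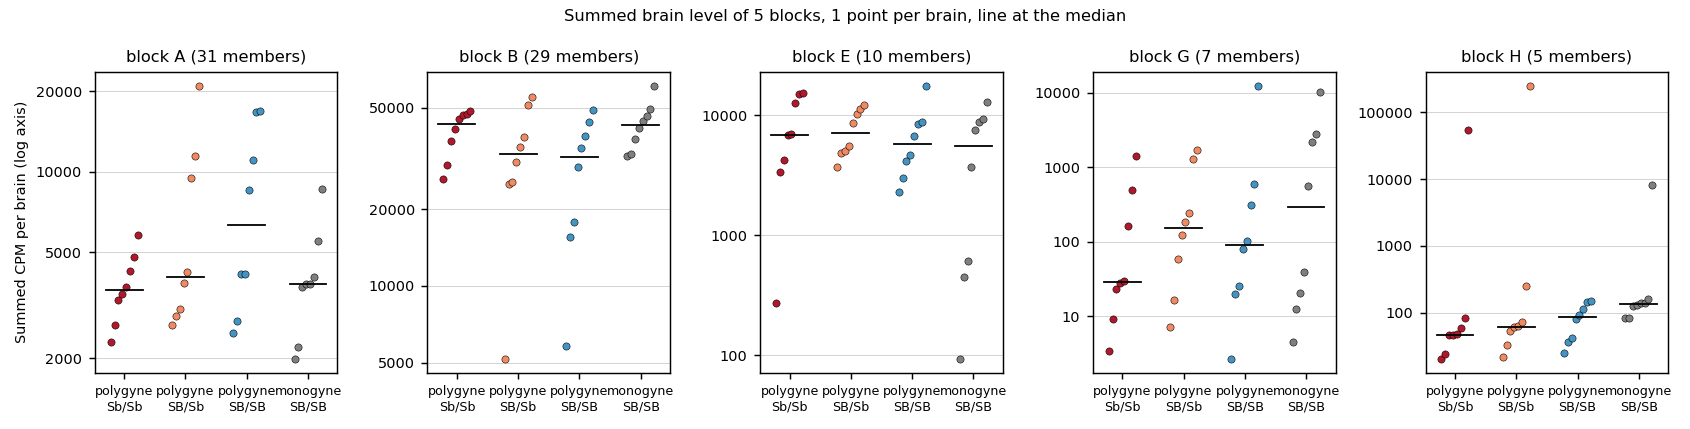
Summed CPM (log axes) of blocks A, B, E, G and H in each of 32 brains by group, with a line at the group median. Sb/Sb brains held none of the highest block A values or lowest block B values, block E was lowest in 1 Sb/Sb and 3 monogyne brains, and block H reached 8122 CPM or more in 1 Sb/Sb, 1 SB/Sb and 1 monogyne brain and 251 CPM at most elsewhere.

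In the ovaries the members were scarce in every group. Summed over the 166, they took 271 to 1587 CPM in Sb/Sb ovaries (median 442), 255 to 579 in SB/Sb (median 362), 194 to 270 in polygyne SB/SB (median 228) and 156 to 200 in monogyne ovaries (median 187). Every Sb/Sb ovary was above every polygyne SB/SB ovary in this sum, though by less than 1 CPM at the closest, while SB/Sb ovaries overlapped both. Ovary 5G owed 1240 of its 1587 CPM to block H. With block H left out the Sb/Sb ovaries held 269 to 709 CPM and the polygyne SB/SB ovaries 194 to 268. Members at 1 CPM or more numbered 58 to 82 in Sb/Sb ovaries, 49 to 72 in SB/Sb, 41 to 63 in polygyne SB/SB and 36 to 46 in monogyne ovaries. The median member stood at 0.396 to 0.970 CPM in Sb/Sb ovaries, 0.365 to 0.641 in SB/Sb, 0.197 to 0.330 in polygyne SB/SB and 0.121 to 0.275 in monogyne ovaries. On that measure all polygyne ovaries with Sb lay above all polygyne SB/SB ovaries, whereas the low monogyne values are what chose the members. The split was not particular to the members. Over the whole table, features with a count numbered 11823 to 12539 in polygyne ovaries with Sb and 11534 to 11803 in polygyne SB/SB ovaries.

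**Figure D4:**
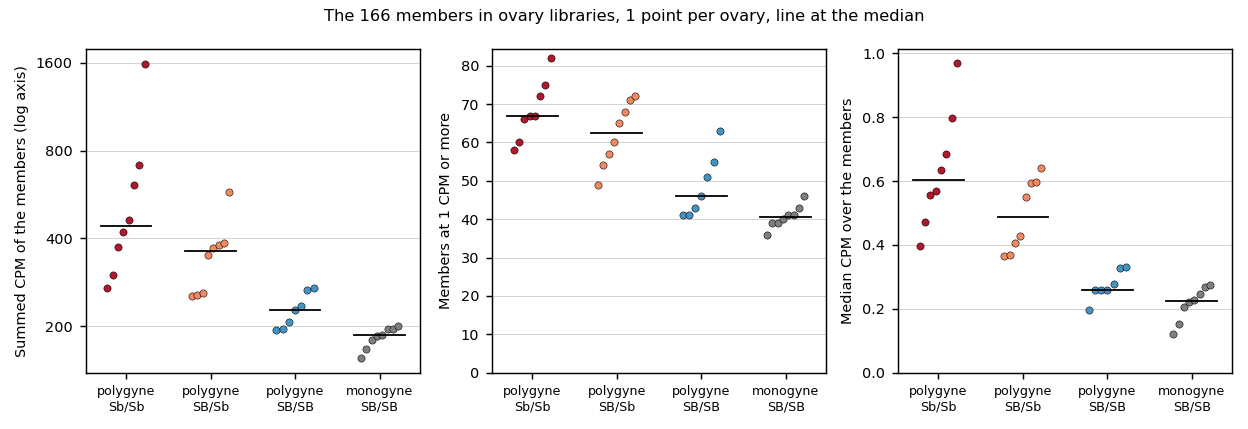
The 166 members in each of 31 ovaries by group, as summed CPM (log axis), as the number of members at 1 CPM or more and as the median CPM over members, with a line at the group median. The median member lay at 0.365 CPM or more in every polygyne ovary with Sb and at 0.330 CPM or less in every polygyne SB/SB ovary, and monogyne ovaries were used to choose the members. The number of features with a count over the whole table, not drawn here, was split in the same way.

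Counted by gene, the Sb/Sb ovary mean was above the polygyne SB/SB ovary mean in 131 of 166 members, and the SB/Sb mean in 116. Both held in 107, and in 72 the 3 polygyne means stood in the order of the number of Sb copies. In the fit with no filter, the Sb/Sb change was above 0 in 75.3% of members against 54.6% of all genes. The SB/Sb change was above 0 in 69.9% of members against 50.2% of all genes. The choice asked for low levels in monogyne SB/SB ovaries, so a majority above is not independent of it. Group means of 1 CPM or more were reached by 74 members in Sb/Sb, 67 in SB/Sb, 52 in polygyne SB/SB and 41 in monogyne ovaries, and means of 10 CPM or more by 14, 5, 3 and 3. As a percent of the brain mean of the same group, the median member's ovary mean was 0.467% in Sb/Sb, 0.261% in SB/Sb, 0.214% in polygyne SB/SB and 0.111% in monogyne animals. In Sb/Sb animals this share had quartiles of 0.133% and 1.55%, and reached 27.7% for LOC105197827, whose level swung widely between brains. Whether brain RNA reached ovary libraries was not tested.

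The filter on low counts kept 99 of 166 members in ovary. Of these, 23 were higher and 2 lower in Sb/Sb than in polygyne SB/SB ovaries (edgeR, adjusted p under 0.05), against 8.21% of all 10797 genes higher, 5.88% lower and 14.1% either way. Members that passed the filter had counts in some ovaries, so the same test was also run with no filter: 28 of 166 (16.9%) were then higher and 2 lower, against 6.2% and 3.7% of 14489 genes and 9.9% either way. The median change over the 166 was 1.05 log2 units, against 0.06 over all genes in that fit. The choice asked for low ovary levels in monogyne SB/SB gynes, and many members were near the floor in polygyne SB/SB ovaries too. This leaves little room for lower calls, and the genes set beside the members are not matched for level. Of the 25 calls, 15 held without any 1 polygyne ovary. Without ovaries 1E, 16C, 16D and 104G the counts were 23 higher and 3 lower of 100 members tested, and 1115 higher and 848 lower of all 10871 genes.

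LOC105194759 on chromosome 1 had 10.1, 16.7 and 30.7 CPM as its lowest, median and highest Sb/Sb ovary, 5.15, 13.3 and 20.4 CPM in SB/Sb, 3.35, 4.23 and 8.01 CPM in polygyne SB/SB and 2.79, 4.59 and 6.27 CPM in monogyne ovaries. Each Sb/Sb ovary was above each polygyne SB/SB ovary, the SB/Sb ovaries spanned the gap, and the change was 1.65 log2 units in Sb/Sb (SE 0.27, adjusted p = 0.000132) and 1.16 in SB/Sb (SE 0.26, adjusted p = 0.0138). Its brain means were 410, 358, 355 and 483 CPM in Sb/Sb, SB/Sb, polygyne SB/SB and monogyne animals. Without SB/Sb ovary 15A its SB/Sb change was no longer called (adjusted p = 0.0506).

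The odorant-binding protein LOC105203994 had 3.09, 5.21 and 6.50 CPM in Sb/Sb ovaries, 1.98, 3.68 and 6.03 CPM in SB/Sb, 0.816, 1.45 and 3.29 CPM in polygyne SB/SB and 0.607, 0.847 and 1.51 CPM in monogyne ovaries. Only polygyne SB/SB ovary 1E reached the Sb/Sb range. The change was 1.52 log2 units in Sb/Sb (SE 0.28, adjusted p = 0.000548) and 1.19 in SB/Sb (SE 0.28, adjusted p = 0.0158). The levels were small beside the brain means given above.

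LOC105195556 on chromosome 4 separated Sb/Sb from polygyne SB/SB ovaries, with 1.78, 2.75 and 4.67 CPM in Sb/Sb ovaries, 1.02, 1.51 and 3.19 CPM in SB/Sb, 0.132, 0.444 and 1.24 CPM in polygyne SB/SB and 0.177 to 1.21 CPM in monogyne ovaries. The change was 2.24 log2 units in Sb/Sb (SE 0.41, adjusted p = 0.000558) and 1.55 in SB/Sb (SE 0.40, adjusted p = 0.0395). LOC105197799, the member with the most brain counts, had 1.58, 3.10 and 6.53 CPM in Sb/Sb ovaries, 2.21, 3.41 and 5.28 CPM in SB/Sb, 0.396, 1.11 and 1.18 CPM in polygyne SB/SB and 0.601, 1.04 and 2.97 CPM in monogyne ovaries. All Sb/Sb and all SB/Sb ovaries were above all polygyne SB/SB ovaries, with changes of 1.86 log2 units in Sb/Sb (SE 0.36, adjusted p = 0.000902) and 1.88 in SB/Sb (SE 0.36, adjusted p = 0.00311). Without 1 of 9 single ovaries the SB/Sb change of LOC105195556 was no longer called, whereas that of LOC105197799 was called without any 1.

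LOC105200547 and LOC105194452 were the other members called in both genotypes with Sb. LOC105200547 averaged 6.42 ± 3.46 CPM in Sb/Sb (n = 8), 7.13 ± 5.00 in SB/Sb (n = 8), 2.09 ± 0.84 in polygyne SB/SB (n = 7) and 1.52 ± 0.56 in monogyne ovaries (SD, n = 8). LOC105194452 was at 0.271 to 1.36 CPM in Sb/Sb ovaries, 0.169 to 2.09 in SB/Sb and 0 to 0.327 in polygyne SB/SB ovaries, where 3 of 7 libraries had a count. These make 6 members higher in SB/Sb than in polygyne SB/SB ovaries and 0 lower, against 1.53% of 10797 genes higher, 0.13% lower and 1.66% either way, and 3 of the 6 held without any 1 ovary. A member can pass the filter on low counts through the group where it is high. With no filter 4 of 166 members (2.41%) were higher and 0 lower, against 142 higher and 10 lower of 14489 genes. With the title number as a replicate block only LOC105197799 was called of 92 members tested, against 86 of 10641 genes higher, and over all the alternatives the adjusted p of LOC105203994 reached 0.124 and that of LOC105195556 0.192. When Sb/Sb ovaries were set against SB/Sb ovaries, 0 of 99 members were called by edgeR, against 0.139% of all genes, and 11 members and 758 of all 10797 genes had an unadjusted p under 0.05. DESeq2 called 1 member, LOC105206506, lower in Sb/Sb (0.259% of genes lower). All 6 were called in Sb/Sb as well, but both comparisons share the polygyne SB/SB ovaries.

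Others of the 23 rested on more variable values. LOC105198124 had 0.323, 1.21 and 11.6 CPM in Sb/Sb ovaries, at least 0.809 CPM in SB/Sb and 0, 0.0555 and 0.493 CPM in polygyne SB/SB ovaries, with a change of 3.47 log2 units in Sb/Sb (SE 0.79, adjusted p = 0.00433). LOC105199420 had 1.51, 2.36 and 10.8 CPM in Sb/Sb against 0.197, 0.620 and 0.990 CPM in polygyne SB/SB ovaries (2.39 log2 units, SE 0.61, adjusted p = 0.00966). LOC105202363 of block A had 5.93 to 15.8 CPM in Sb/Sb against 1.33 to 8.01 CPM in polygyne SB/SB ovaries (1.37 log2 units, SE 0.35, adjusted p = 0.00970). LOC105194889 had 0.861, 4.67 and 12.8 CPM against 1.31, 1.92 and 3.55 CPM (1.32 log2 units, SE 0.35, adjusted p = 0.0116), and the polygyne SB/SB range lay within the Sb/Sb range. LOC105202817 on chromosome 16 had 0.543, 2.49 and 5.21 CPM in Sb/Sb against 0.0493, 0.674 and 1.70 CPM in polygyne SB/SB ovaries (1.87 log2 units, SE 0.56, adjusted p = 0.0247).

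A few of the calls were lost without 1 very high ovary. LOC105202373 of block H had 227 CPM in Sb/Sb ovary 5G and a median of 0.806 CPM in that group, against 0 to 1.04 CPM in polygyne SB/SB ovaries; its change of 6.20 log2 units (adjusted p = 0.00337) was 1.78 and was not called without 5G (adjusted p = 0.133). LOC105193375 and LOC105199979 of the same block had 625 and 231 CPM in 5G and medians of 0 in the group. The brain of the same gyne held 0.429 CPM of LOC105193375 and 0 of LOC105199979, so 5G was high in ovary and not in brain, while 104G, 30A and 233A were high in brain, with 3.76, 0.515 and 0.364 CPM of the whole block in their ovaries. LOC105207591 had 159 CPM in Sb/Sb ovary 19G and a group median of 1.47 CPM, and its call (4.17 log2 units, adjusted p = 0.0369) was lost without 19G (0.72 log2 units, adjusted p = 0.724) and without any 1 of 4 polygyne SB/SB ovaries. LOC105204684, named here after its values were seen, likewise lost its call without 19G (2.74 log2 units with it, 0.22 without), and also without any 1 of 6 polygyne SB/SB ovaries. Ovary 19G was also the one with the lowest vitellogenin receptor level. LOC105199198 had 78.3 CPM in 19G and lost its call without any 1 of 7 ovaries.

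LOC105204051 was the member with the most ovary counts outside block H. It had 23.4, 44.3 and 80.4 CPM in Sb/Sb, 19.4, 46.3 and 185 CPM in SB/Sb, 9.30, 18.9 and 64.7 CPM in polygyne SB/SB and 9.94, 17.4 and 21.5 CPM in monogyne ovaries. The groups overlapped and it was not called by edgeR in any ovary comparison. DESeq2 called it higher in SB/Sb than in polygyne SB/SB ovaries (1.34 log2 units, SE 0.42, adjusted p = 0.0484). LOC105203059 of block A, on chromosome 16, had 1.67, 5.79 and 33.4 CPM in Sb/Sb, 0.640, 3.68 and 14.5 CPM in SB/Sb, 0.296, 1.35 and 9.94 CPM in polygyne SB/SB and 0 to 0.439 CPM in monogyne ovaries, and was called in ovary by neither edgeR nor DESeq2.

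In the other direction, LOC105206506 on chromosome 16 had less RNA in Sb/Sb ovaries. It stood at 0.129, 0.255 and 3.20 CPM in Sb/Sb, 1.42, 2.36 and 5.23 CPM in SB/Sb, 3.43, 4.93 and 7.64 CPM in polygyne SB/SB and 1.51, 3.15 and 4.02 CPM in monogyne ovaries. Each Sb/Sb ovary was below each polygyne SB/SB ovary, the highest of them being 19G, and the change was -2.77 log2 units (SE 0.53, adjusted p = 0.000848), or -4.05 without 19G. In brain the same gene differed by less than its spread, with the group means given above. LOC105201581 on chromosome 15 had 0.923, 1.63 and 3.71 CPM in Sb/Sb, 0.597, 2.70 and 4.90 CPM in SB/Sb, 2.69, 4.58 and 6.59 CPM in polygyne SB/SB and 2.06, 3.22 and 4.20 CPM in monogyne ovaries (-1.36 log2 units in Sb/Sb against polygyne SB/SB, SE 0.33, adjusted p = 0.00699). Its neighbour LOC105201582, also a member, did not pass the filter on low counts, and LOC105201583 was not called by edgeR (2.07 log2 units, SE 0.72, adjusted p = 0.0508) but was called higher in Sb/Sb by DESeq2 (2.13 log2 units, SE 0.68, adjusted p = 0.0146).

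Complete separation of Sb/Sb from polygyne SB/SB ovaries was seen in 4 of 99 members above (LOC105194759, LOC105195556, LOC105197799 and LOC105199420) and 1 below (LOC105206506), against 2.03% and 0.537% of 10797 genes. These 99 are the members that the filter on low counts kept. A member can pass it through the ovaries where it is high, so the counts of separated members are not independent of the filter. Separation was not counted without the filter. Between SB/Sb and polygyne SB/SB ovaries LOC105197799 and LOC105198124 were separated above and none below, against 0.769% and 0.0741% of genes, and between Sb/Sb and SB/Sb ovaries no member was (0.037% above, 0.0556% below). No member was separated between polygyne SB/SB and monogyne ovaries, against 0.843% of genes above and 0.222% below. The polygyne SB/SB mean was the higher one in 103 of 166 members, but low monogyne ovary values are what chose the members.

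At the low end, the ovaries held hardly any counts of some members. No member lacked counts in all 31 ovaries, and 43 had counts in every one. LOC105203147, which averaged 209, 237, 211 and 203 CPM in Sb/Sb, SB/Sb, polygyne SB/SB and monogyne brains, had counts in a single SB/Sb ovary (0.174 CPM). LOC105194687, LOC105201731, LOC105194866 and LOC105197885 had counts in 2, 5, 2 and 3 of 31 ovaries. Members with no count in the group numbered 3 in Sb/Sb, 6 in SB/Sb, 11 in polygyne SB/SB and 9 in monogyne ovaries, where a count of 0 allows up to 3 counts of a library. LOC105204669, which averaged 1292 CPM in Sb/Sb, 948 in SB/Sb, 706 in polygyne SB/SB and 1076 in monogyne brains, averaged 0.0598, 0.104, 0.0768 and 0.00715 CPM in the ovaries of those groups.

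Whether the genotype difference itself depended on the tissue was tested in the 47 polygyne libraries. The Sb/Sb against SB/SB change differed between brain and ovary in 20 of 166 members, more positive in brain in 2 and more positive in ovary in 18, against 1.49% and 1.62% of 11640 genes and 3.1% either way. The median difference, brain minus ovary, was -0.98 log2 units over the members and -0.05 over all genes. The choice asked for low ovary levels in monogyne SB/SB gynes, so this direction is not independent of it. LOC105206506 differed by 3.52 log2 units (SE 0.62, adjusted p = 0.00446), LOC105195556 by -1.96 (SE 0.37, adjusted p = 0.00822), LOC105194452 by -3.78 (SE 0.83, adjusted p = 0.0189), LOC105203994 by -1.38 (SE 0.37, adjusted p = 0.0445) and LOC105205428 by 1.48 (SE 0.36, adjusted p = 0.0308). Of the 18 members more positive in ovary, 12 were of block A, led by LOC105202363 (-2.70, SE 0.44, adjusted p = 0.00231): their fitted change was below 0 in brain and above 0 in ovary. The polygyne SB/SB brains include 1E and 16D, whereas 16C and 30A are SB/Sb and enter only through the shared fit. Without animals 1E, 16C, 16D and 30A the count was 56 of all 11727 genes (361 with all animals) and 6 members. These were LOC105202363, LOC105206506, LOC105195556, LOC105201995 and LOC105203994 among the 20 and LOC105194759 besides.

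**Figure D5:**
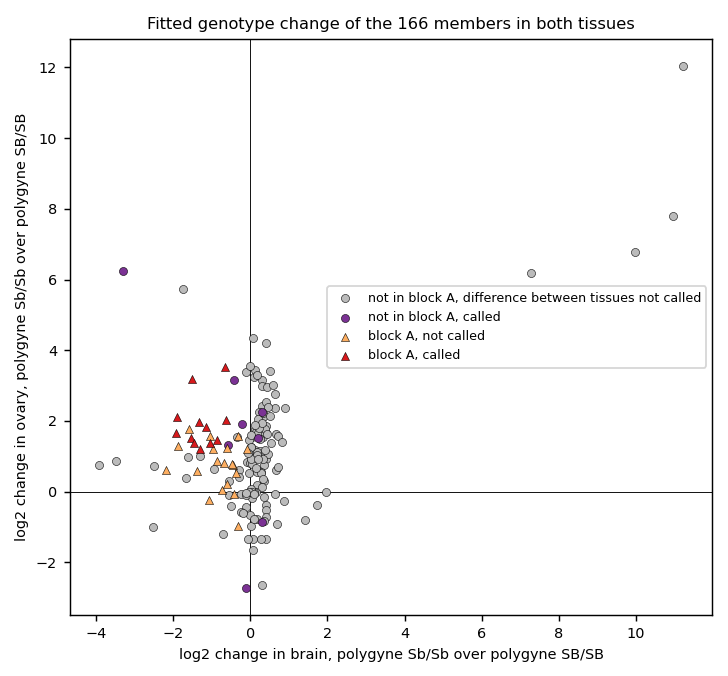
Fitted log2 change of polygyne Sb/Sb over polygyne SB/SB in brain (x axis) and in ovary with no filter on low counts (y axis), 1 point per member; triangles are block A and dark red or purple marks members whose change differed between the tissues. Most points lie above 0 in ovary and near 0 in brain, block A lies to the left, and the points far to the right belong to block H, which rests on single libraries.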

How the data were processed

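Smart-seq2 libraries of 32 brains and 32 ovaries, 8 per tissue and group, were analysed from the deposited table of each library. It holds raw read counts for 15710 features, 15512 LOC genes and 198 tRNAs, which took 0.000177% of counts. Per the submitters' processing notes the authors used Trimmomatic 0.32, STAR 2.5.3a and featureCounts; the genome build, annotation, strand setting and handling of multi-mapped reads are not given in the sources used here, and no normalization was applied to the deposited counts. Brain and ovary RNA was extracted with different kits, per the labels' protocols, so a tissue difference holds a kit difference.

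CPM were computed as counts over the library total. Members and lists were chosen with earlier results of these data known. Tests used edgeR 4.0.16 in R 4.3.3 (quasi-likelihood, TMM, minimum count of 10 by group, Benjamini-Hochberg over all genes of the tissue, calls at an adjusted p under 0.05), fitted on all 4 groups of a tissue, and for the tissue comparison on 47 polygyne libraries with the animal as a block; DESeq2 1.42.0 was an alternative. Standard errors are the log2 change over the square root of F. The fit was tested on simulated counts. Floors cover counting error only. The text names the 10 members with the most monogyne brain counts, called members (at most 12 per contrast), those with the most or fewest ovary counts, the most and least even, those of chromosome 16, the named one and those at the thresholds. Gene placement is from UNIL_Sinv_3.0, whose coordinates are not printed. Listed markers other than the vitellogenin receptor and the odorant-binding protein could not be matched, and protein and promoter sequences were not analysed here.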

Additional observations from a re-analysis of the deposited data

Results flagged for a closer look

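Some of the genes examined were named for uneven or very high levels, and members of a block vary together. The share set apart can therefore not be compared with the 1 in 20 or so that chance sets apart. Single libraries stood apart from the rest of their group in 49 of 215 group values examined (22.8%). Among them were brains already described: in LOC105202373, LOC105199979, LOC105196618 and LOC105193375 of block H, Sb/Sb brain 104G held 10477, 6858, 6351 and 30823 CPM, SB/Sb brain 30A 78224, 38511, 26816 and 102951 CPM, and monogyne brain 233A 1245, 1015, 1594 and 4037 CPM. Polygyne SB/SB brain 107E stood apart at low levels in the last 3 of them (7.01, 3.16 and 11.9 CPM). The members' summed level set apart brain 30A (312810 CPM).

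Other brains set apart were 107G (7126 CPM of LOC105197517), 16G (10593 CPM of LOC105199190), 30G (196 CPM of LOC105192793) and 104G (16.1 CPM of LOC105199531) in the Sb/Sb group. Among polygyne SB/SB brains they were 107E (9936 CPM of LOC105202669 and 24087 CPM of LOC105199190) and 1E (33.0 CPM of LOC105202817). Among monogyne brains they were 207A (3881 CPM of LOC105195084), 222A (7803 CPM of LOC105199190), 233A (823 CPM of LOC105192793) and 239A (1063 CPM of LOC105199531).

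In ovary, Sb/Sb library 5G stood apart in the members' sum (1587 CPM) and in LOC105202373 (227 CPM), LOC105193375 (625 CPM), LOC105199979 (231 CPM) and LOC105198124 (11.6 CPM). Sb/Sb ovary 19G did so in LOC105207591 (159 CPM), LOC105199198 (78.3 CPM) and LOC105206506 (3.20 CPM), 104G in LOC105199420 (10.8 CPM) and 107G in LOC105194866 (0.249 CPM). SB/Sb ovary 15A stood apart in the sum (579 CPM), LOC105204051 (185 CPM), LOC105199198 (53.8 CPM) and LOC105202373 (1.85 CPM), and 5A in LOC105193375 (1.02 CPM). Polygyne SB/SB ovaries set apart were 1E (3.29 CPM of LOC105203994), 107E (64.7 CPM of LOC105204051) and 16D (1.58 CPM of LOC105199979). Monogyne ovaries set apart were 233A (2.97 CPM of LOC105197799), 207A (0.607 CPM of LOC105198124 and 0.303 CPM of LOC105197885) and 209A (1.82 CPM of LOC105193375).

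The Sb/Sb against SB/SB change differed between brain and ovary, by edgeR's interaction test, in 20 members, named here by that test. Brain minus ovary, the differences in log2 units outside block A were 3.52 for LOC105206506, 1.48 for LOC105205428, -1.96 for LOC105195556, -3.78 for LOC105194452, -8.06 for LOC105193910, -1.38 for LOC105203994, -1.57 for LOC105194889 and -1.99 for LOC105194143. In block A they were -2.70 for LOC105202363, -4.07 for LOC105201995, -2.60 for LOC105205854, -4.11 for LOC105197862, -4.06 for LOC105200525, -3.23 for LOC105203059, -2.49 for LOC105193942, -3.45 for LOC105199568, -3.10 for LOC105200529, -2.50 for LOC105208160, -2.23 for LOC105201024 and -2.79 for LOC105199412.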

How the results depend on the processing

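No called change of a member named here turned sign under the alternatives run. With DESeq2, 14 members were called between Sb/Sb and polygyne SB/SB brains, 2 higher and 12 lower (2 by edgeR, both higher), and 1 between Sb/Sb and SB/Sb ovaries (0 by edgeR). Over all genes these counts were 572 and 48 (103 and 15 by edgeR). Between Sb/Sb and polygyne SB/SB ovaries DESeq2 called 32 members (25 by edgeR) and 1989 of all genes (1521 by edgeR). For SB/Sb against polygyne SB/SB ovaries it called 9 members (6 by edgeR) and 347 of all genes (179 by edgeR). Fitted on the 2 groups alone, 12 members were called between Sb/Sb and polygyne SB/SB ovaries (25 with all groups) and 1 between SB/Sb and polygyne SB/SB ovaries (6 with all groups), where a mean count of at least 50 left 2. Calls over all genes fell too, to 675 (1521 with all groups) and 80 (179 with all groups), and to 136 at that mean count. Without animals 1E, 16C, 16D and 30A, an alternative chosen after seeing the data, the change differed between the tissues in 6 members (20 with all animals). Over all genes it did so in 56 (361 with all animals). At a ratio of 2 times 64, 108 genes were members. The cause of these changes was not tested. Leaving out 1 polygyne library at a time gave 1 to 5 calls of members between Sb/Sb and polygyne SB/SB brains, 0 to 1 between SB/Sb and polygyne SB/SB brains, 18 to 29 between Sb/Sb and polygyne SB/SB ovaries, 3 to 7 between SB/Sb and polygyne SB/SB ovaries and 0 to 1 between Sb/Sb and SB/Sb ovaries, and leaving out 1 monogyne animal gave 159 to 170 members. For the fits without 1 polygyne library, calls over all genes are not given here. The title numbers that recur across genotypes were not taken as pairs in the main fit, since no label says what they share. Ovaries with the same number tended to deviate together, with r over 0.1 in 14 of 20 pairs (median 0.277). For different numbers it was 63 of 156 ovary pairs (median -0.0187). In brain it was 9 of 22 pairs with the same number (median 0.0734) and 35 of 170 with different numbers (median -0.0104). With title numbers as a replicate block, 2 members were called between Sb/Sb and polygyne SB/SB brains. The block left 18 calls of members between Sb/Sb and polygyne SB/SB ovaries (25 in the main fit) and 1 between SB/Sb and polygyne SB/SB ovaries (6 in the main fit). Over all genes the block left 92 calls in that brain comparison (103 in the main fit). In the ovary comparisons it left 959 (1521 in the main fit) and 91 (179 in the main fit). Ovary counts of most members were too low for small differences to be detectable at this depth. The planned description of protein and promoter features was not run.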
